A study of Rattus norvegicus with 6 samples.

Results

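The genes described here are 8 epithelial keratins, Krt5, Krt7, Krt8, Krt14, Krt15, Krt17, Krt18 and Krt19, out of 19828 entries in a table of gene expression from rat lung. They were chosen by symbol, with values of these samples already known, to set the keratins of simple epithelium (Krt7, Krt8, Krt18 and Krt19) against those of basal cells (Krt5, Krt14, Krt15 and Krt17). Of the 8, 7 have an entry of their own. Krt5 appears only in a joint entry with its relative Krt77, which is used here as the Krt5 value, so the share of Krt5 in it is unknown. Total lung of Sprague-Dawley rats was profiled by bulk RNA-seq in 3 libraries of the wild type (WT) and 3 of an Ahr knockout (Ahr-KO), all labelled with day 56 and the Sugen-Hypoxia treatment. Sugen, a blocker of VEGF receptors, is combined with low oxygen to model pulmonary arterial hypertension, which the title of the series names. All 6 libraries carry that treatment and no untreated lung is analysed here, so the comparison concerns the genotype of the aryl hydrocarbon receptor gene Ahr within treated lung. Neither the age and sex of the rats nor what the Ahr edit removes is given in the sources used here. The column names of all 6 libraries also hold the letters NO, whose meaning is not given either.

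Keratins are the intermediate filament proteins of epithelial cells. A filament is built from heterodimers of 1 type I and 1 type II chain, so the genes are used in pairs. Krt8 (type II) and Krt18 (type I) are the pair of simple epithelia, and Krt7 (type II) and Krt19 (type I) join them in ducts, airways and the alveolar lining. Krt5 (type II) with Krt14 (type I) is the pair of basal cells, the stem cells at the base of the airway lining, where Krt15 and Krt17 (both type I) are also made. In the alveoli flat type 1 cells cover most of the surface, while cuboidal type 2 cells make surfactant. Whole lung holds few basal cells compared with alveolar cells.

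In the RefSeq gene table (assembly GRCr8), all 8 members were matched. The type II genes lie together on chromosome 7 and the type I genes on chromosome 10, with the exception of Krt18, which is the protein-coding neighbour of its partner Krt8 on chromosome 7. The next protein-coding gene on one side of Krt7 is Krt80, and Krt15 and Krt19 are neighbours on chromosome 10. RefSeq promoter windows (GRCr8) were matched for 3 of the 8 members, and stretches of them are shown because they set the promoters of the simple pair beside that of a basal keratin. They end 1 base before the annotated start for Krt5 and Krt18 and 71 bases before it for Krt8. Capitals mark ATAAA, the core of many TATA boxes, and GGGCGG, the GC box, on either strand (TTTAT and CCGCCC on the other), which do not overlap except for the 2 ATAAA matches of Krt8.
Krt8, chr7:135010410-135010589, minus strand: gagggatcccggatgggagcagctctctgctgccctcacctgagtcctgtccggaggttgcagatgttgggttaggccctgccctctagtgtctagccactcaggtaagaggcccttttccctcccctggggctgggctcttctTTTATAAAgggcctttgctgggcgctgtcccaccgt
Krt18, chr7:135035918-135036167, plus strand: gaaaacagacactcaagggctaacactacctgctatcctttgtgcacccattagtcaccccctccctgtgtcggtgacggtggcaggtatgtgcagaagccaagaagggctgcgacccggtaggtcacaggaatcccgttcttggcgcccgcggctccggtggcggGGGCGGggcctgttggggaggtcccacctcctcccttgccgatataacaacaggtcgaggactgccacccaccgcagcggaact
Krt5, chr7:134730570-134730819, minus strand: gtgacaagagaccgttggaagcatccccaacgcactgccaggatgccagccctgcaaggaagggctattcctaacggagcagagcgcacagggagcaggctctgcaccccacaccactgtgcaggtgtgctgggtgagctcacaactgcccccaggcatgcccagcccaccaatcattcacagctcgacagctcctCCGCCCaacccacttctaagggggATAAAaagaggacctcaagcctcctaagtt
In the 250 bases before the start, Krt8 held 2 matches of ATAAA, 1 on each strand, and 0 of GGGCGG. Krt18 held 0 and 1 in the same order, and Krt5 held 1 and 1. Among 33469 promoter windows of that length, 39.3% held ATAAA and 30.5% held GGGCGG. The core letters of the element that AHR binds, GCGTG, or CACGC on the other strand, were in 0 of these 3 windows and in 25.9% of all windows. A match or its absence describes these letters in this window and nothing more.

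The deposited values are normalised by the authors and behave as read counts divided by 1 factor per library. The library totals ran from 17.8 to 18.0 M (mega) for WT and from 18.9 to 19.3 M for Ahr-KO. One read was worth 0.81 to 1.40, which puts the depth at about 12.9 to 23.6 M reads, and library 2 was the shallowest of each group. Libraries are called 0, 1 and 2 as in the table. The values are not divided by gene length, so levels are compared between libraries and not between genes. As a check of the labels, the AHR target genes Cyp1a1 and Ahrr (the AHR repressor) were at 4.22 ± 5.42 and 5.09 ± 0.933 (mean ± SD, n = 3) in Ahr-KO, log2 differences of -12.94 and -8.21 from WT. Ahr itself did not pass the test (log2 0.08 ± 0.18 SE, adjusted p = 0.81), and reads from exons outside the edit would not check the label.

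The simple keratins differed among themselves in how far they stood apart between genotypes, with Krt7 and Krt19 well above the WT range in every Ahr-KO library and Krt8 and Krt18 close to it. In bulk tissue, more cells of a type and more RNA per cell cannot be told apart. Values are given in the order of libraries 0, 1 and 2. Krt7 had values of 3692.7, 5122.9 and 3893.0 in WT, and of 10889.1, 10754.5 and 12491.5 in Ahr-KO. The groups did not overlap, and the lowest Ahr-KO value was above the highest WT value by more than the spread within either group. On the log2(value + 1) scale Krt7 was higher in Ahr-KO by 1.44 ± 0.14 (SE, 95% interval 1.12 to 1.76), which is 2.71-fold. Krt19, a type I chain without the usual tail domain, stood at 4920.3, 5971.3 and 4718.4 in WT and at 9207.1, 10245.4 and 10682.7 in Ahr-KO. Its log2 difference was 0.95 ± 0.12 (95% interval 0.69 to 1.22), or 1.94-fold, again without overlap.

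Krt8, the type II chain found in all simple epithelia, stood at 3722.7, 3969.1 and 3547.5 in WT and at 4178.8, 5080.1 and 5556.2 in Ahr-KO. The groups did not overlap, but WT library 1 and Ahr-KO library 0 lay close together, and the difference of 0.39 ± 0.12 (95% interval 0.12 to 0.66) was 1.31-fold. Krt18, its type I partner, stood at 1249.6, 1608.0 and 1313.5 in WT and at 1399.1, 1638.0 and 1688.8 in Ahr-KO. These values overlapped, since WT library 1 was above Ahr-KO library 0, and the difference was 0.18 ± 0.12 (95% interval -0.10 to 0.47).

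**Figure D1:**
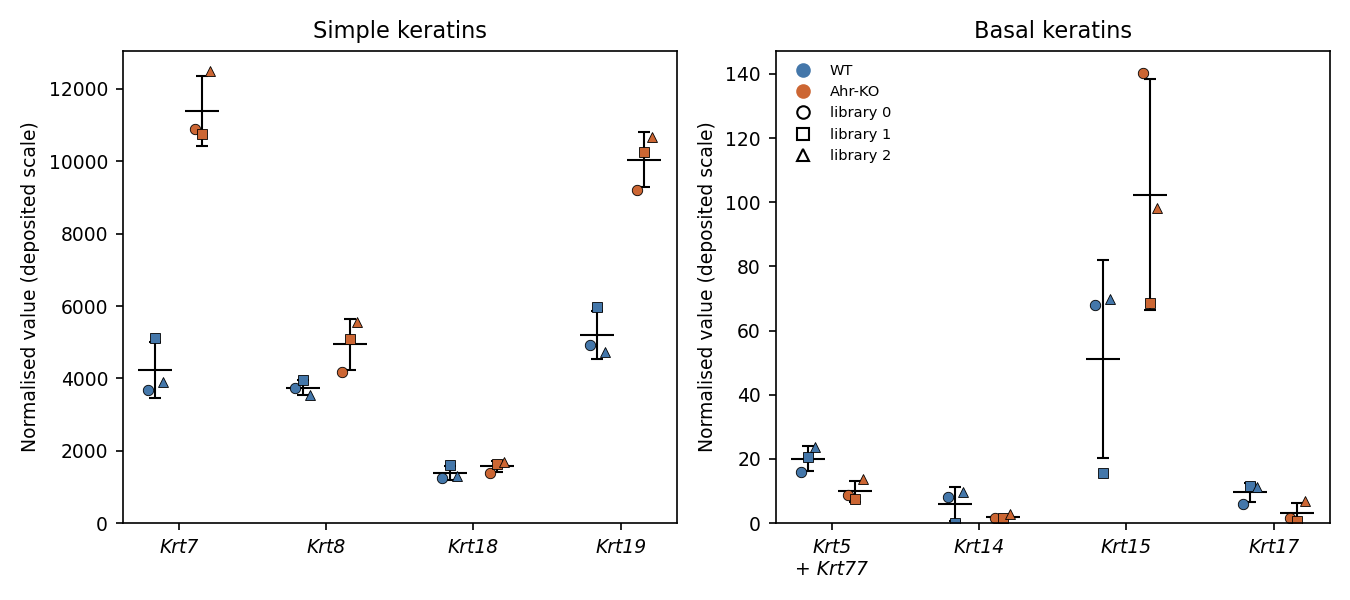
Normalised values of the simple keratins (left) and the basal keratins (right) in each library, with the mean ± SD of 3 libraries per group. Krt7 and Krt19 lie above the WT values in the 3 Ahr-KO libraries, while the basal keratins, drawn on an axis of their own, sit at 0 to 140.2.

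In the fit over all genes (limma-trend, Benjamini-Hochberg), 2 of the 8 members, Krt7 and Krt19, had an adjusted p under 0.05 and were higher in Ahr-KO, and 0 were lower. Over all 15386 tested entries 10.8% passed, 4.50% higher and 6.26% lower. The groups did not overlap for 4 of the 8, with Krt7, Krt8 and Krt19 above the WT range and the Krt5 entry below it, where 34.3% of all tested entries had groups that did not overlap, 17.0% with Ahr-KO above and 17.4% with Ahr-KO below. The members were chosen with this contrast in view, so these counts describe them and test nothing. All 8 passed the filter on low values. The median log2 difference was 0.67 over the 4 simple keratins and -0.80 over the 4 basal keratins, beside 0.01 over all tested entries.

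The balance between the simple keratins also stood apart between the genotypes. It is given as a ratio within each library, which does not depend on the scaling between libraries. The Krt7 to Krt8 ratio, between the type II chains, was 0.992, 1.29 and 1.10 in the WT libraries and 2.61, 2.12 and 2.25 in the Ahr-KO libraries, a 2.07-fold difference. The Krt19 to Krt18 ratio, between the type I chains, was 3.94, 3.71 and 3.59 in WT and 6.58, 6.25 and 6.33 in Ahr-KO, or 1.71-fold higher. Both ratios were higher in each Ahr-KO library than in any WT library. The ratio of the classical pair, Krt8 to Krt18, was 2.98, 2.47 and 2.70 in WT and 2.99, 3.10 and 3.29 in Ahr-KO, with the highest WT and the lowest Ahr-KO library, both numbered 0, almost equal. Krt7 also stood higher against Krt19 (0.751 to 0.858 in WT, 1.05 to 1.18 in Ahr-KO). The sum of the 4 simple keratins was 13472.5 to 16671.2 in WT and 25674.1 to 30419.2 in Ahr-KO, 1.92-fold higher. Most of that sum was Krt7, Krt8 and Krt19, and the class mean of log2 values, in which each gene counts alike, differed by 0.74 against 0.94 for the sum.

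**Figure D2:**
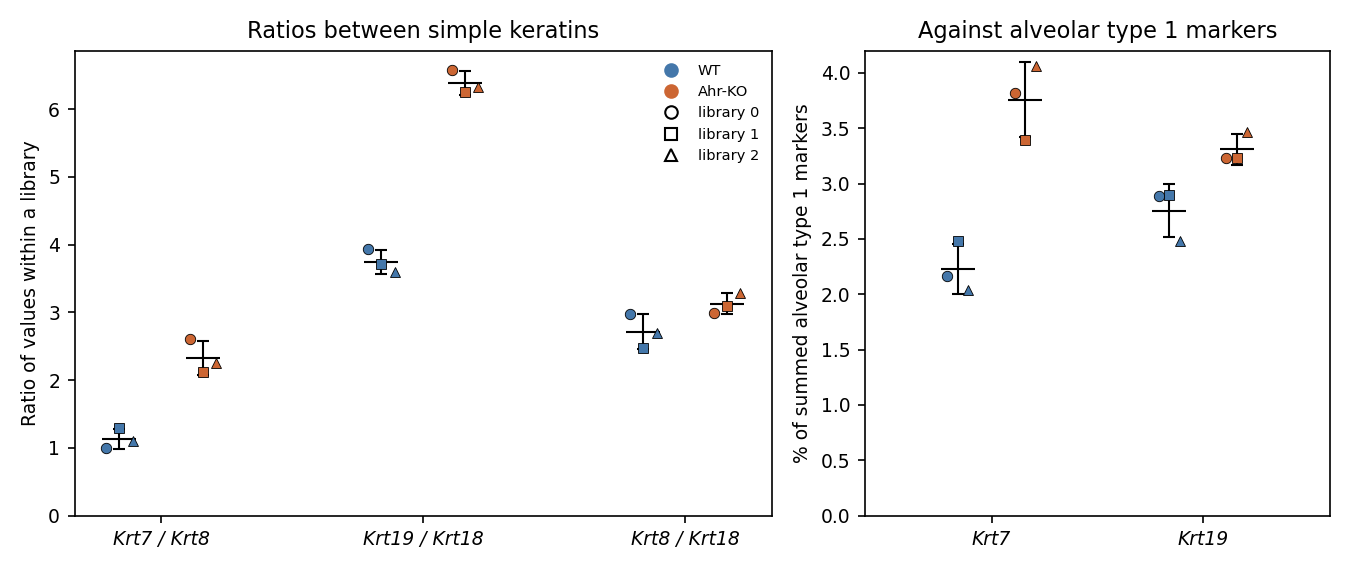
Ratios of values within a library between simple keratins (left) and Krt7 and Krt19 as a percentage of the summed alveolar type 1 markers (right), with the mean ± SD of 3 libraries per group. The Krt7 to Krt8 ratio is 0.992 to 1.29 in WT and 2.12 to 2.61 in Ahr-KO, and the Krt8 to Krt18 ratios of both groups lie between 2.47 and 3.29.

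The basal keratins were read at low values in all 6 libraries, and counting error is large for them. The joint Krt5 and Krt77 entry stood at 15.99, 20.53 and 23.78 in WT and at 8.87, 7.44 and 13.64 in Ahr-KO, which is 58 reads in the 3 WT libraries and 30 in the 3 Ahr-KO libraries. The groups did not overlap, though Ahr-KO library 2 and WT library 0 lay close, and the log2 difference was -0.97 ± 0.35 (95% interval -1.77 to -0.16). Krt14, the partner of Krt5, stood at 8.0, 0 and 9.79 in WT and at 1.61, 1.65 and 2.73 in Ahr-KO, or 15 and 6 reads in all. The groups overlap through the value of 0 in WT library 1. The exact 95% Poisson limit for that 0 is 3.03, and the intervals of the Ahr-KO libraries start at 0.195 to 0.330. Counting error therefore does not tell WT library 1 from the Ahr-KO libraries. The intervals of WT libraries 0 and 2, 3.45 to 15.8 and 3.94 to 20.2, lie above that limit. WT library 1 thus stood apart from them by more than counting error. The Krt14 difference was -0.64 ± 0.89 and turned to 0.03 with a pseudocount of 0.1, so no direction can be given. RefSeq lists Krt14 as an older name of Krt16 as well, and reads of these relatives may have been shared. The entry that names Krt16, jointly with Ka11, was at 0 in all 6 libraries.

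Krt17, a keratin of basal and stressed epithelium, stood at 6.0, 11.50 and 11.19 in WT and at 1.61, 0.826 and 6.82 in Ahr-KO, 28 reads against 8. The groups overlapped through Ahr-KO library 2, and the difference was -1.61 ± 0.61 (95% interval -3.02 to -0.20). Krt15, also a type I keratin of basal cells, had a difference of the opposite sign. It stood at 67.98, 15.60 and 69.94 in WT and at 140.2, 68.59 and 98.22 in Ahr-KO, with a difference of 1.20 ± 0.57 (95% interval -0.11 to 2.50). WT library 1 was far below the other two, and exact 95% Poisson intervals for counting error, 9.39 to 24.4 there against 52.8 to 86.2 in WT library 0 and 51.9 to 92.2 in WT library 2, did not overlap. Ahr-KO library 1 was level with WT libraries 0 and 2. Without WT library 1 the Krt15 difference was 0.50 and the Krt14 difference -1.74, so the size of both depended on that library. The Krt17 difference was -2.23 without Ahr-KO library 2.

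Krt15 made up 32.8% to 69.4% of the basal keratin sum in WT and 80.9% to 92.1% in Ahr-KO, so the sum mixes opposite differences. The sum was 98.0, 47.6 and 115 in WT and 152, 78.5 and 121 in Ahr-KO, which overlapped (log2 0.48). Without Krt15 it was 30.0, 32.0 and 44.8 in WT and 12.1, 9.92 and 23.2 in Ahr-KO, 2.49-fold lower and without overlap. As a percentage of the simple keratin sum, the basal sum was 0.721, 0.286 and 0.851 in WT and 0.593, 0.283 and 0.399 in Ahr-KO, with overlap (log2 -0.46). The Krt15 and Krt14 values deviated together within groups, both lowest in WT library 1, and so did those of Krt17 and the Krt5 entry (r = 0.91 and 0.96 over 6 libraries after subtracting each group's mean). The simple keratins Krt18 and Krt19 did so too (r = 0.95). Between the classes some pairs deviated in opposite directions, with r = -0.92 for Krt15 and Krt19, -0.90 for Krt15 and Krt18, and -0.81 for Krt7 with either Krt14 or Krt15. Each r rests on 6 points that share library and depth, and is given as a description.

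Beyond the members, the table holds 39 further keratin entries, and these were not used to choose the members. Of them 15 were listed at 0 in all 6 libraries and 15 passed the filter on low values. Among these 15 tested entries 1 rose and 0 fell, beside 4.50% and 6.26% of all tested entries. Ahr-KO lay above WT without overlap for 3 of the 15 and below for 3, beside 17.0% and 17.4% of all tested entries. The one that rose was Krt80, a type II keratin found in many epithelia and the neighbour of Krt7 on chromosome 7. Krt80 stood at 151.9, 193.8 and 166.5 in WT and at 843.0, 742.1 and 941.3 in Ahr-KO, a 4.91-fold rise (log2 2.30 ± 0.14, 95% interval 1.96 to 2.63, adjusted p = 5.1e-04). With any 1 library left out it still passed (highest adjusted p = 0.0084). The Krt80 value was 3.78% to 4.28% of the Krt7 value in WT and 6.90% to 7.74% in Ahr-KO, higher in each Ahr-KO library than in any WT library.

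The other 9 entries with a group mean of at least 10 did not pass. Krt1, a keratin of the upper epidermis, came closest, at 56.98, 76.38 and 58.75 in WT and 22.57, 24.79 and 45.02 in Ahr-KO (log2 -1.09 ± 0.31, adjusted p = 0.065). Its groups did not overlap, and its adjusted p was 0.048 with library totals made equal and 0.032 in limma-voom. Krt10, the partner of Krt1 in skin, was at 41.2 ± 9.21 in Ahr-KO against 27.99, 25.46 and 4.20 in WT (adjusted p = 0.2), where WT library 2 stood apart. Krt76, a keratin of oral epithelium, had a log2 difference of -0.44 (adjusted p = 0.2) and Krt2, of the upper epidermis, one of -0.56 (adjusted p = 0.24). Krt4, the type II chain of squamous lining such as the oesophagus, had -0.48 (adjusted p = 0.38), Krt23 0.29 (0.49), Krt78 0.64 (0.31), Krt75 -0.17 (0.86) and Krt79 -0.13 (0.79). The direction of the last pair changed when single libraries were left out. Over the 15 tested entries the median was -0.13.

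**Figure D3:**
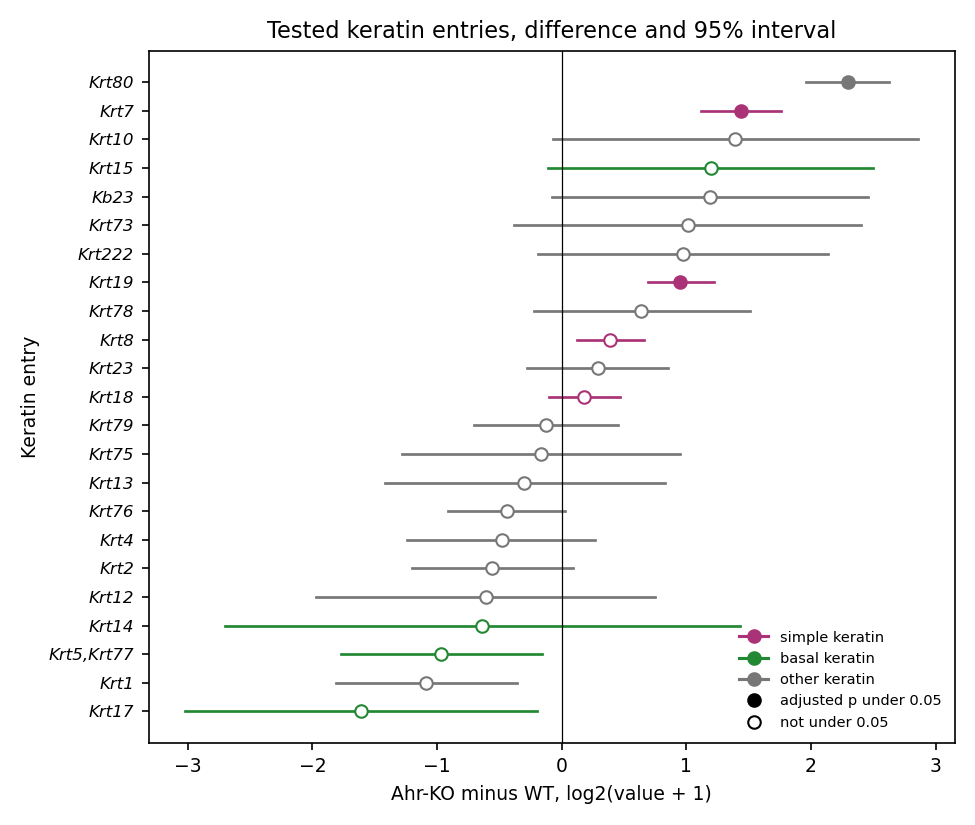
Difference between Ahr-KO and WT on the log2(value + 1) scale, with its 95% interval, for the 23 keratin entries that were tested; filled points had an adjusted p under 0.05 over all tested entries. Krt80, Krt7 and Krt19 are filled and lie at 2.30, 1.44 and 0.95, and the intervals of the basal keratins are wide.

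Keratin filaments end at desmosomes, which join neighbouring cells, and at hemidesmosomes, which hold a cell to the basement membrane. Of 13 tested desmosome and plakin genes 2 rose, 1 fell and 10 did not pass (median log2 0.30, beside 0.01 over all tested entries, of which 4.50% rose and 6.26% fell). Periplakin (Ppl), a linker between keratin filaments and the cell membrane, stood at 3440.8, 4098.0 and 5037.3 in WT and at 8545.4, 8345.4 and 8546.4 in Ahr-KO, a 2.05-fold rise (adjusted p = 0.0062). Its partner envoplakin (Evpl) rose 1.69-fold (adjusted p = 0.024). Plakophilin 1 (Pkp1), a desmosome protein best known from stratified epithelium, fell from 825.7, 891.9 and 1589.1 to 68.51, 96.69 and 84.58, which is 12.64-fold (log2 -3.66 ± 0.26, adjusted p = 9.6e-04). Every WT value of Pkp1 was far above every Ahr-KO value, whereas its relatives Pkp2 (log2 0.26, adjusted p = 0.16) and Pkp3 (0.61, adjusted p = 0.052) did not pass. Desmoplakin (Dsp), the main keratin anchor of the desmosome, did not pass either (log2 0.30, adjusted p = 0.3).

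Of all tested entries 4.50% rose and 6.26% fell. Among 10 tested hemidesmosome genes 3 rose, 0 fell and 7 did not pass (median log2 0.26). They were Lama3 (2173.8 ± 226 against 4675.3 ± 591, 2.15-fold, adjusted p = 0.0042) and Lamb3 (1.62-fold, adjusted p = 0.013), chains of the laminin of epithelial basement membranes, and plectin (Plec, 1.42-fold, adjusted p = 0.015), which ties filaments to hemidesmosomes. Col17a1, the transmembrane collagen of basal cell hemidesmosomes, had a log2 difference of -1.01 (adjusted p = 0.053). Of 10 tested intermediate filament genes of other families 1 rose and 1 fell (median log2 -0.10). Synemin (Synm), a filament protein of muscle, rose 1.66-fold (adjusted p = 0.0054), the lamin gene Lmnb1 fell 1.52-fold (adjusted p = 0.043), and vimentin (Vim), the mesenchymal filament protein, did not pass (log2 -0.24, adjusted p = 0.27). Leaving out single libraries ended the call of Evpl (WT 0, WT 1, Ahr-KO 1 or Ahr-KO 2, highest adjusted p = 0.1) and of Plec (WT 0, Ahr-KO 1 or Ahr-KO 2, 0.066). The same held for Lmnb1 (any library other than WT 2, 0.13) and Lamb3 (Ahr-KO 2, 0.062). With no filter on low values, Ppl (0.051), Evpl (0.11), Lamb3 (0.07) and Lmnb1 (0.071) did not pass, while Pkp1, Lama3, Plec and Synm did.

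Among markers of alveolar type 1 cells, which make Krt7 and Krt19, none fell. Over all tested entries 4.50% rose and 6.26% fell. Of 14 tested alveolar type 1 markers 7 rose, 0 fell and 7 did not pass (median log2 0.70). Their summed level was 170373.7 to 206155.8 in WT and 285008.9 to 317412.9 in Ahr-KO, and none was at 0. Col4a3, a basement membrane collagen chain, rose from 1531.9 ± 464 to 4573.9 ± 517, or 3.06-fold (adjusted p = 0.006) and Hopx, a type 1 cell transcription cofactor, rose from 9969.4 ± 1857.6 to 20727.0 ± 1021.2 (2.10-fold, adjusted p = 0.0071). The anchoring protein gene Akap5 rose 2.19-fold (adjusted p = 0.011), and Ager, the receptor RAGE that type 1 cells carry in abundance, rose 1.61-fold (adjusted p = 0.034). Krt7 amounted to 2.17%, 2.48% and 2.04% of the summed type 1 markers in WT and to 3.82%, 3.39% and 4.06% in Ahr-KO, so it was higher in Ahr-KO relative to this sum as well (1.68-fold). What part the cells with these markers have in the Krt7 and Krt19 values was not tested. Krt19 amounted to 2.89%, 2.90% and 2.48% in WT and to 3.23%, 3.23% and 3.47% in Ahr-KO, a smaller difference (1.20-fold), also without overlap. Both percentages depend on the sum, which is weighted to its highest genes, such as Ager, and do not hold against each marker. Ager rose less than Krt7 (2.71-fold) and Krt19 (1.94-fold). Col4a3 rose more than both, and Hopx and Akap5 rose more than Krt19 but less than Krt7.

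The next 3 lists stand beside 4.50% of all tested entries that rose and 6.26% that fell. Of 24 tested pan-epithelial genes 3 rose, 0 fell and 21 did not pass (median log2 0.33). The difference was positive for 22 of the 24, and Ahr-KO lay above WT without overlap for 12 and below for 0, where 17.0% of all tested entries lay above and 17.4% below. Among them were Esrp2, an epithelial splicing factor (1.59-fold, adjusted p = 0.013), and Prom2, a prominin of membrane protrusions (3.24-fold, adjusted p = 0.048). Epcam, the epithelial adhesion molecule, had a log2 difference of 0.36 ± 0.13 (adjusted p = 0.12) and the E-cadherin gene Cdh1 one of 0.34 ± 0.10 (adjusted p = 0.064). The ratio of Krt8 to Epcam overlapped between the groups, at 1.15, 1.07 and 1.38 in WT and 1.08, 1.23 and 1.35 in Ahr-KO. The ratio of Krt7 to Epcam did not, at 1.14 to 1.52 in WT and 2.60 to 3.03 in Ahr-KO. Of 14 alveolar type 2 markers 1 rose, the transcription factor gene Etv5 (1.62-fold, adjusted p = 0.019), and 0 fell (median log2 0.39). The difference was positive for 12 of these 14, and Ahr-KO lay above WT without overlap for 9 and below for 0. Sftpc, the surfactant gene that defines these cells, was at 230761 to 285880 in WT and 299807 to 345211 in Ahr-KO (log2 0.32, adjusted p = 0.36). Of 15 tested markers of transitional alveolar cells, which are known for high Krt8, 1 rose, S100a6 (1.37-fold, adjusted p = 0.039), and 0 fell (median log2 -0.16). Positive differences were seen in 6 of these 15, and Ahr-KO lay above WT without overlap for 1 and below for 3.

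Tp63 and Ngfr, which are used as markers of basal cells, were read at low values, as the basal keratins were. The transcription factor gene Tp63 stood at 6.0, 4.93 and 5.60 in WT and at 2.42, 3.31 and 2.73 in Ahr-KO, a few reads per library, without overlap but not past the test (adjusted p = 0.25, or 0.034 in limma without the trend). The surface receptor gene Ngfr stood at 52.98, 23.82 and 37.77 in WT and at 15.31, 13.22 and 17.73 in Ahr-KO (log2 -1.19 ± 0.35, adjusted p = 0.067), again without overlap. Of 12 tested basal cell markers 1 rose, the laminin receptor gene Bcam (1.55-fold, adjusted p = 0.013), which is not particular to basal cells, and 0 fell (median log2 -0.29). The markers did not share a direction. The difference was positive for 5 of the 12, and Ahr-KO lay above WT without overlap for 2 and below for 3.  Over all tested entries 17.0% lay above and 17.4% below, while 4.50% rose and 6.26% fell. The list's summed level was 15134.6 to 18456.2 in WT and 23991.1 to 25260.3 in Ahr-KO, of which Bcam alone was 12693.3 to 15434.4 and 20711.4 to 21848.3. Of 9 tested squamous and hillock markers 1 fell, the cornified envelope gene Cnfn, from 8.0, 15.60 and 8.39 in WT to 0 in the 3 Ahr-KO libraries, where 0 allows up to 2.42 to 4.09 (adjusted p = 0.0071). Cnfn passed the filter only through its WT values, so it had to differ, and its call supports nothing. It was below the filter without any 1 of the WT libraries and under a stricter filter (a value of 10 in 3 libraries), where 0 genes of this list passed. The other 8, with Krt4 and Krt10 among them, did not pass (median log2 -0.04), and 7 of the list's 18 entries, among them those of the squamous markers Sprr1a, Sprr3 and Ivl, were at 0 in all libraries.

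Medians were below 0 for the markers of 3 other kinds of lung cell that make keratins. Over all tested entries the median was 0.01, with 4.50% rising and 6.26% falling. Mesothelial cells of the lung surface make simple keratins, and of 11 tested mesothelial markers 0 rose and 2 fell, the retinoic acid enzyme gene Aldh1a2 (2.19-fold, adjusted p = 0.0093) and the membrane glycoprotein gene Gpm6a (1.45-fold, adjusted p = 0.03; median log2 -0.45). Their summed level was 4169.6 to 6344.4 in WT and 3003.1 to 4304.0 in Ahr-KO, with mesothelin (Msln) at a log2 difference of -0.34 (adjusted p = 0.46) and Upk3b, a uroplakin of these cells, at -0.71 (adjusted p = 0.11). Without library 2 of each group, a fit chosen after seeing the data, both passed, at adjusted p = 0.035 and 0.034. With any 1 library left out neither passed (highest adjusted p = 0.78 for Msln and 0.29 for Upk3b). Upk3b also passed in limma-voom (adjusted p = 0.046). Of 15 tested ciliated cell markers 3 fell and 1 rose (median log2 -0.59). The dynein gene Dnai2 fell 2.73-fold (adjusted p = 0.024) and the ciliary regulator Foxj1 1.67-fold (adjusted p = 0.03), while the tubulin-binding gene Tppp3 rose 1.64-fold (adjusted p = 0.025), and the list's summed level was 12959.1 to 14576.3 in WT and 15237.6 to 18903.9 in Ahr-KO. Tppp3 carried that direction: without it the sum was 5032.2 to 6632.0 in WT and 2849.7 to 4571.0 in Ahr-KO. Of 11 tested airway secretory markers 2 fell and 0 rose (median log2 -0.95). The secretoglobin gene Scgb3a1 fell from 207.9, 497.7 and 560.9 to 48.36, 35.54 and 8.18 (adjusted p = 0.012), whereas Scgb1a1, which defines club cells, did not pass (log2 0.04, adjusted p = 0.93). The other gene called, Bpifa1, a secreted airway protein, stood at 33.99, 269.4 and 1386.3 in WT and at 0.806, 0 and 0 in Ahr-KO (adjusted p = 0.0096). It too passed the filter only through WT and had to differ, and limma-voom did not call it (adjusted p = 0.24). Thymus markers, a check for neighbouring tissue with Krt5 and Krt14, summed to 4.93 to 13.0 in WT and 4.84 to 10.9 in Ahr-KO, and 0 of the 2 tested passed or reached an unadjusted p under 0.05. The part of any of these cell types in the keratin values was not tested.

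**Figure D4:**
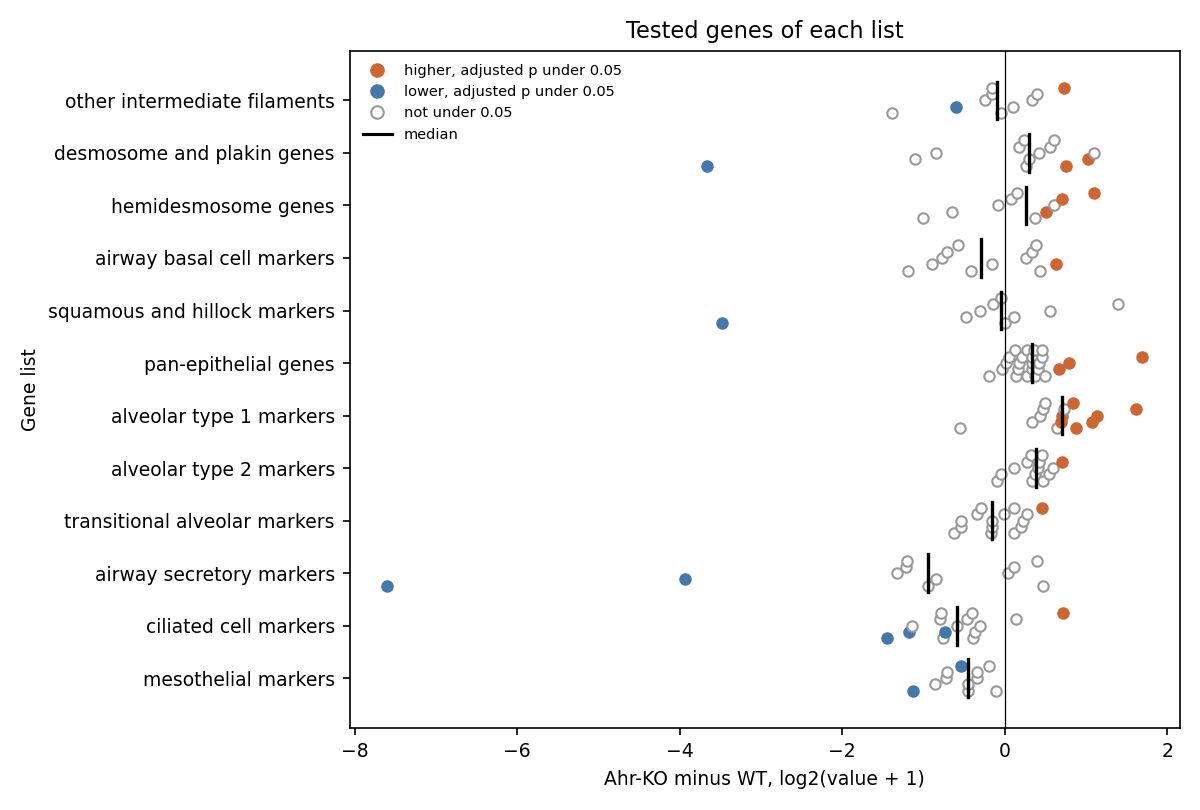
Difference between Ahr-KO and WT on the log2(value + 1) scale for each tested gene of 12 lists (points) with the list's median (line); filled points had an adjusted p under 0.05. The type 1 cell markers have a median of 0.70, and the airway secretory, ciliated and mesothelial markers have medians of -0.95, -0.59 and -0.45.

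Several of these calls were lost when libraries were left out, which also makes the groups smaller. Over all entries 407 to 1834 passed with 1 library left out, against 1655 with all libraries. The log2 differences of the named genes that were called kept their sign wherever those fits held them. They ran from 0.59 to 0.81 for Ager and from -0.86 to -0.59 for Foxj1. What ended a call was not tested. Without library 2 of each group, the shallowest, 6 type 1 markers, 4 desmosome and plakin genes, 1 hemidesmosome gene and 1 pan-epithelial gene passed, as did 0 basal, squamous and ciliated markers, with Cnfn below the filter. Leaving out Ahr-KO library 2 ended the calls of Akap5 (adjusted p = 0.055) and Bpifa1 (0.053), and Bpifa1 was below the filter without any 1 of the WT libraries. Esrp2 lost its call without Ahr-KO 1 or 2 (highest 0.065), and Bcam (0.06) and Etv5 (0.079) theirs without WT 0 or Ahr-KO 2. Among the ciliated markers, Foxj1 did so without WT 0, WT 1, Ahr-KO 0 or Ahr-KO 2 (0.094), Dnai2 without WT 1, Ahr-KO 0 or Ahr-KO 2 (0.094) and Tppp3 without WT 1, Ahr-KO 1 or Ahr-KO 2 (0.088). Ager (0.12) was lost without WT 0, WT 2, Ahr-KO 1 or Ahr-KO 2, Gpm6a (0.11) without any library other than WT 2 and Ahr-KO 0, and Prom2 (0.17) and S100a6 (0.13) without any other than WT 2. Quantile normalisation ended the calls of S100a6 (0.15), Lmnb1 (0.075), Ager (0.064) and Tppp3 (0.06). Equal library totals ended those of S100a6 (0.074) and Prom2 (0.052), limma-voom that of S100a6 (0.067), and a pseudocount of 0.1 that of Prom2 (0.05). Without the trend Prom2 (0.1), S100a6 (0.083), Foxj1 (0.076), Evpl (0.069), Tppp3 (0.068), Gpm6a (0.062), Dnai2 (0.061), Etv5 (0.06) and Ager (0.058) did not pass. With no filter on low values none of the type 1, type 2, pan-epithelial, mesothelial, basal, secretory, ciliated or transitional markers passed.

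The genes whose values followed the keratins most closely within groups were found by correlation with the class mean over the 6 libraries, after subtracting each group's mean, among 13515 entries with means of at least 10. For the simple keratins they were Erf (r = 0.996), Tomm40 (0.995), Dph2 (0.994), Ablim3 (0.990) and Snrpc (0.990). For the basal keratins they were Vps33a (0.996), Dscam (0.996), Synpo2 (0.995), Tmem62 (0.994) and Lcn2 (0.994). With 6 points that share library and depth and so many entries compared, such values describe these libraries only. None of the 10 was an epithelial marker of the lists above.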

How the data were processed

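RNA of total lung came from 6 samples (3 WT, 3 Ahr-KO); per the labels' protocols it was isolated with Trizol, a column kit and DNase. FastQC and build rn6 come from the submitters' processing notes; how reads were aligned, counted and normalised, and whether by strand, is not given in the sources used here. Deposited was 1 table of a normalised signal per gene symbol, in which 97.4% to 97.9% of a library's values above 0 fell within 0.05 of whole multiples of 1 step, read as 1 read. There were 0 further columns of values. Columns name a group and count from 0, so they were matched to groups only. Separate animals are not stated, and p-values then cover the spread of these samples, which may be technical. Within groups no pair of libraries agreed within sampling noise (lowest chi-square per gene 15.9).

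Entries reaching a value of 1 in 3 or more libraries (15386) were fitted as log2(value + 1) with limma 3.58.1 (R 4.3.3), genotype alone and a mean-variance trend. The 2-sided p-values were adjusted by Benjamini-Hochberg across these entries (threshold 0.05). Folds are log2 differences on the linear scale and understate low genes. The code was tested on simulated data. Members and gene lists were chosen with earlier results of these data known. Named are the members, other keratins with a group mean of 10 or more, defining markers, up to 3 genes with the lowest p per list and the 5 entries most like each class; Pkp2, Pkp3, Dsp, Col17a1, Vim, Sprr1a, Sprr3 and Ivl were picked after seeing their values. A gene that this rule names is not reported here. Related keratins may share reads. Poisson intervals and the limit of 3 reads cover counting error only. Alternatives were other filters, a pseudocount of 0.1, quantile normalisation, equal library totals, no trend, robust limma, limma-voom on reads estimated from the step, a block for the library number, single libraries left out and an adjusted p under 0.10. Chosen after seeing the data were the fit without both libraries numbered 2 and basal sums without Krt15 or without the joint entry.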

Additional observations from a re-analysis of the deposited data

How the results depend on the processing

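The call of 2 keratins held under every filter, scaling and test tried and with the library number as a replicate block, and 3, with Krt8 added, passed at an adjusted p under 0.10 and without Ahr-KO library 0; leaving out 1 library gave 2 to 3. Over all entries 1655 passed, against 451 with no filter, 952 without the trend, 899 with the library number as a replicate block, 553 without both libraries numbered 2, 2853 at an adjusted p under 0.10, and 407 to 1834 when 1 library was left out. The cause was not tested. Same-numbered libraries did not deviate together (r = -0.1, 0.069 and -0.074), so the numbers were not taken to pair the samples. Among named genes the replicate block ended the calls of Lmnb1 (adjusted p = 0.1), S100a6 (0.085), Gpm6a (0.07), Etv5 (0.057) and Dnai2 (0.051). Equal library totals gave 448 higher and 1314 lower, in place of 692 and 963. As a mean of log2 values the simple keratins differed by 0.74 (sum 0.94, 0.88 to 1.04 with 1 library left out), the basal keratins by -0.50 (sum 0.48, 0.10 to 0.74) and their ratio by -1.25 (sums -0.46, -0.95 to -0.16). Without Krt15 the basal sum and the ratio stood at -1.32 and -2.26, as Krt15 differs in the other direction. Among values far from the threshold, the sign turned for Ahr (-0.01 after quantile normalisation, with equal totals and with limma-voom, -0.06 to 0.29 with 1 library left out), Scgb1a1 (0.04 as reported; -0.32, -0.05 and -0.05 in the same order, -0.19 to 0.17 with 1 library left out), Krt75 (0.14 after quantile normalisation, 0.31 without both libraries numbered 2, -0.67 to 0.16 with 1 library left out) and Krt79 (-0.39 to 0.17 with 1 library left out). Depth limits the basal keratins, Tp63 and Cnfn, which rest on few reads per library.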
